A study of Mus musculus with 27 samples.

Results

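The 9 genes described here code for transcription factors and a cofactor of red cell maturation: Klf1, Klf3, Zfpm1, Nfe2, Mafg, Mafk, Bcl11a, Sox6 and Foxo3. They were chosen by name, as the rows that carry these symbols in each of 5 RNA-Seq tables, and are 9 of the 14558 genes listed in all 5. RNA was sequenced from MEL cells, a murine erythroleukaemia line arrested as an erythroid progenitor, of which the C88 clone was used, so every one of the 21 RNA-Seq libraries comes from a single cell line. In undifferentiated cells a corepressor was depleted: ETO2 (gene Cbfa2t3) by short hairpin sh2 or sh3 (2 libraries each, with 2 controls), IRF2BP2 by hairpin sh1 (2 libraries, 2 controls), LSD1 (gene Kdm1a; 2 libraries, 1 control), each 72 h after transduction, and GFI1B by siRNA (2 libraries, 2 controls, with the time after transfection not settled from the sources used here). The controls, labelled WT, received a non-targeting hairpin or siRNA, so all knockdown (KD) and WT cells carried an RNAi agent. In the fifth comparison 2 libraries of cells induced to mature for 96 h were set against 2 of non-induced cells; the inducing agent is not given in the sources used here. A list of ETO2 and IRF2BP2 binding sites from chromatin immunoprecipitation (ChIP-Seq) in undifferentiated MEL cells gave the sites near the 9 genes.

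KLF1 binds CACC boxes and turns on globin, heme and membrane genes in erythroid cells, whereas KLF3, a relative that recruits the CtBP corepressors, competes for the same boxes. FOG1, the product of Zfpm1, does not bind DNA on its own but joins GATA1, and NF-E2 is a pair made of the product of Nfe2 and a small MAF protein such as MAFG or MAFK, which lack an activation domain. BCL11A and SOX6 silence embryonic beta-like globin genes in definitive erythroid cells, and FOXO3 drives antioxidant and organelle clearance genes late in maturation. ETO2 is a corepressor brought to DNA by the GATA1, TAL1 and LDB1 complex, whose sites often pair an E-box remnant with a GATA word. IRF2BP2, a partner corepressor, joins ETO2 there and also binds sites that the paper describes as independent of that complex.

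Of the 13229 binding sites in the combined list, 36 had a member's transcription start as the nearest start of a protein-coding gene, and these fell near 8 of the 9 genes. Among the 9888 genes that were tested in all 5 RNA-Seq comparisons and found in the annotation, 46.3% were nearest to a site of any class. The list holds 1760 sites of an ETO2-only class, 2730 of a shared class and 8739 of an IRF2BP2-only class. These names were read from a class code through the class sizes, as no header states them. Each antibody was represented by a single library, so no replicate error could be attached to a site. Some neighbouring intervals of the list abut, as at Klf3, Foxo3 and Mafk below, and each interval is counted as a site. Shared sites lay nearest to 7 members against 14.5% of those 9888 genes. Sites of either the ETO2-only or the shared class lay nearest to 7 members against 20.7%.

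Klf1 had 2 sites, both upstream of its start. The shared site was centred 666 bp upstream with an 8.86-fold enrichment over the IgG control, and the ETO2-only site 58 bp upstream with a 4.25-fold enrichment. Their sequences are shown because Klf1 RNA was called changed in 3 of the 5 comparisons, more than any other member. Capitals mark GATA words (AGATAA, the related AGATAG, the word TGATAA or else TGATAG, searched on both strands, so that a match on the opposite strand reads as its reverse complement) and, where present, the composite of CTG, 6 to 8 bases and a GATA word. All coordinates are in build mm9, and the sequences, here and below read 5′ to 3′ along the strand of the gene, come from the mm9 genome.
Klf1 shared site, chr8:87425061-87425261, plus strand: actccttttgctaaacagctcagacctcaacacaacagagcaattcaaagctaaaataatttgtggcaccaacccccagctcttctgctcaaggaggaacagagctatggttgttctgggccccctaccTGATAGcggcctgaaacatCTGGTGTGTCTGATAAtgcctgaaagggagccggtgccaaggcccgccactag
Klf1 ETO2-only site, chr8:87425669-87425821, plus strand: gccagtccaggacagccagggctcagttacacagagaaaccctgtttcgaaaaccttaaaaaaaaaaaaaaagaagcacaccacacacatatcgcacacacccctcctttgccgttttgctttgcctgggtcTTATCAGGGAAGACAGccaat
Each of the Klf1 windows held a composite.

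Nfe2 had 1 site of each class, and these are shown to set the classes side by side at a single gene. The ETO2-only site (13-fold) lay 6587 bp downstream of the start inside the gene, the shared site (14.3-fold) 233 bp upstream and the IRF2BP2-only site (43-fold) 1741 bp upstream.
Nfe2 ETO2-only site, chr15:103082147-103082347, minus strand: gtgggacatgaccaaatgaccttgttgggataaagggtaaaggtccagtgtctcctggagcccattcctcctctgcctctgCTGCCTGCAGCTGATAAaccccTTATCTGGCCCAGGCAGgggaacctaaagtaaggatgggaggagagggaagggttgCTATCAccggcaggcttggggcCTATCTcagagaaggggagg
Nfe2 shared site, chr15:103088967-103089167, minus strand: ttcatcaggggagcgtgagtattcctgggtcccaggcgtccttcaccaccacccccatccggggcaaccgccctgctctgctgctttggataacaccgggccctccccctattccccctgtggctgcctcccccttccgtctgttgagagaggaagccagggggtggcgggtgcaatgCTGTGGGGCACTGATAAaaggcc
Nfe2 IRF2BP2-only site, chr15:103090475-103090675, minus strand: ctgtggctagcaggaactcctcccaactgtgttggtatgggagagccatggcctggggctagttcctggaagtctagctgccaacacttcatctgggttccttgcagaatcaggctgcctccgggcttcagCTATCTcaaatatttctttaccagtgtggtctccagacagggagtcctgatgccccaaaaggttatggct
The ETO2-only window held 4 GATA words and 2 composites, the shared window 1 of each, and the IRF2BP2-only window a single GATA word with no composite, with the highest fold over IgG at Nfe2. By the authors' adjusted p the shared Nfe2 site (9.99e-17) came before the IRF2BP2-only site (2.14e-10).

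Zfpm1 was covered by sites along its gene. Of 6 sites nearest to its start, 3 were shared (7.6-, 9.25- and 13.2-fold) and 3 IRF2BP2-only (4.83- to 8.33-fold), all within the gene between 1721 and 37419 bp downstream of the start. A further shared site of 37.7-fold lay inside Zfpm1 39720 bp from its start but was nearer to the start of Trhr2, so it is not among the 36.
Zfpm1 shared site, chr8:124845659-124845859, plus strand: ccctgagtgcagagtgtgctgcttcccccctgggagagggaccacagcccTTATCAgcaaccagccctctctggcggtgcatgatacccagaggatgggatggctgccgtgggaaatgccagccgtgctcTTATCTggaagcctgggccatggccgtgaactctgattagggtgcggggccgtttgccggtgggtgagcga
This window held 2 GATA words and no composite.

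Klf3 had 10 sites, the most of the members when sites were assigned within 1 Mb (within 100 kb it had 4, fewer than Foxo3 with 7 and Zfpm1 with 6). Of these 10, 5 (3 shared, 1 ETO2-only and 1 IRF2BP2-only) stood together 212434 to 235356 bp upstream of its start. The strongest of these was shared with a 21.5-fold enrichment, and its window held 3 GATA words. An IRF2BP2-only site (12.5-fold) lay 111 bp upstream of the start. The IRF2BP2-only sites 8460 and 9089 bp downstream of the start have abutting intervals.
Klf3 shared site, chr5:64968794-64968994, plus strand: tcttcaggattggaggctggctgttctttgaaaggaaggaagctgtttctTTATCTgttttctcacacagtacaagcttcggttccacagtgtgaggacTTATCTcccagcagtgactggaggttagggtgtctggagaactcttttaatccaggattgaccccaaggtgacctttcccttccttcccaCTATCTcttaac

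Sox6 was the member with no site nearest to its start. Its gene is long, and 3 sites lay inside it but nearer to the start of 1110006G14Rik: a shared site (21.5-fold) 207666 bp from the Sox6 start, and IRF2BP2-only sites at 312685 bp (17-fold) and 499453 bp (8.17-fold).
Sox6 shared site, chr7:122974492-122974692, minus strand: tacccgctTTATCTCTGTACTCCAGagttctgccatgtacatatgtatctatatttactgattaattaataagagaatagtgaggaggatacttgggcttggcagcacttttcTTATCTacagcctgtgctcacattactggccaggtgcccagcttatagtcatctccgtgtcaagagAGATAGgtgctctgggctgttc
The window held 3 GATA words, of which 1 was part of a composite.

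Foxo3 had 7 sites. An ETO2-only site (6.75-fold) and a shared site (4.11-fold) lay inside the gene, 11508 and 32130 bp downstream of the start, and 5 IRF2BP2-only sites (5.5- to 17-fold) lay between 2917 bp downstream and 21543 bp upstream. Of the latter, those 92 bp downstream, 913 bp upstream and 1417 bp upstream of the Foxo3 start have abutting intervals. Mafg, by contrast, had a single site, IRF2BP2-only with 16-fold enrichment, 641 bp downstream of the start and inside the gene. The Mafg window had no GATA word, and capitals in it mark TGANTCAGCA, the letters searched for NF-E2 on both strands.
Foxo3 ETO2-only site, chr10:41984953-41985153, minus strand: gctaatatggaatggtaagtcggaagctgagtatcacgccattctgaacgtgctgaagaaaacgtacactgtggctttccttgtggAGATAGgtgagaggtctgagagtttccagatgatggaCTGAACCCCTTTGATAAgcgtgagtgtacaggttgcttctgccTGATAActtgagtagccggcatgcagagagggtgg
Mafg IRF2BP2-only site, chr11:120494173-120494373, minus strand: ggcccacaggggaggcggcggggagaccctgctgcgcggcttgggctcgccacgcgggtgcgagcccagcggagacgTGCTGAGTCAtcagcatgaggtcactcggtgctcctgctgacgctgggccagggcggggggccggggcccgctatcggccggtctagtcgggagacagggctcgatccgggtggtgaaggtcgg

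Mafk carried the highest enrichment of the 36 sites, a shared site of 64-fold located 12866 bp downstream of its start and beyond its gene, with an ETO2-only site (5.8-fold) at 13477 bp and IRF2BP2-only sites at 503 bp (9.0-fold) and 2050 bp (11.3-fold). The shared and ETO2-only Mafk sites have abutting intervals, and both were centred in a UTR exon of Tmem184a. Bcl11a had a shared site (7.83-fold) 58278 bp downstream of its start and IRF2BP2-only sites at 3062 bp (4-fold) and 51775 bp (5.67-fold), all inside the gene. For a shared site the list does not say which antibody the enrichment was measured with. The median enrichment of the 36 sites was 8.93-fold, and that of all sites 7.33-fold. By class the medians were 6.75-fold at the members against 8.75-fold over the class for ETO2-only sites, 9.25 against 10.25 for shared sites and 8.75 against 6.43 for IRF2BP2-only sites, so only the last class stood higher at the members.

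Across the 36 sites, a GATA word stood within 100 bp of the centre in 24, against 59.8% of all sites. By class, 5 of 5 ETO2-only sites held it where 88.7% of that class did, all 11 shared sites held it where 90.4% did, and 8 of the 20 sites bound by IRF2BP2 alone held it where 44.5% did. Composites were found at 4 ETO2-only sites (33.9% of the class), at 5 shared ones (32.7%) and at 1 IRF2BP2-only site (6.29%), or 10 of 36 against 15.4% of all sites. CCNCNCCC, the letters searched for a KLF box, stood in 17 sites (32.6% of all), 6 of them shared and 11 IRF2BP2-only. The ETS word, GGAA with A or C before it and A or G after it, stood in 15 sites, fewer than its share of all sites (61.1%). TGANTCAGCA was found at Mafg alone (2.09% of all sites), and neither TGTTTAC, searched for FOXO (2.58%), nor AACAAT, searched for SOX (5.7%), stood in any of the 36 windows. A composite holds a GATA word by construction, a KLF match can share its end base with a GATA word, and all motifs were searched on both strands. A motif that was not found says only that these letters are not in the window.

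**Figure D1:**
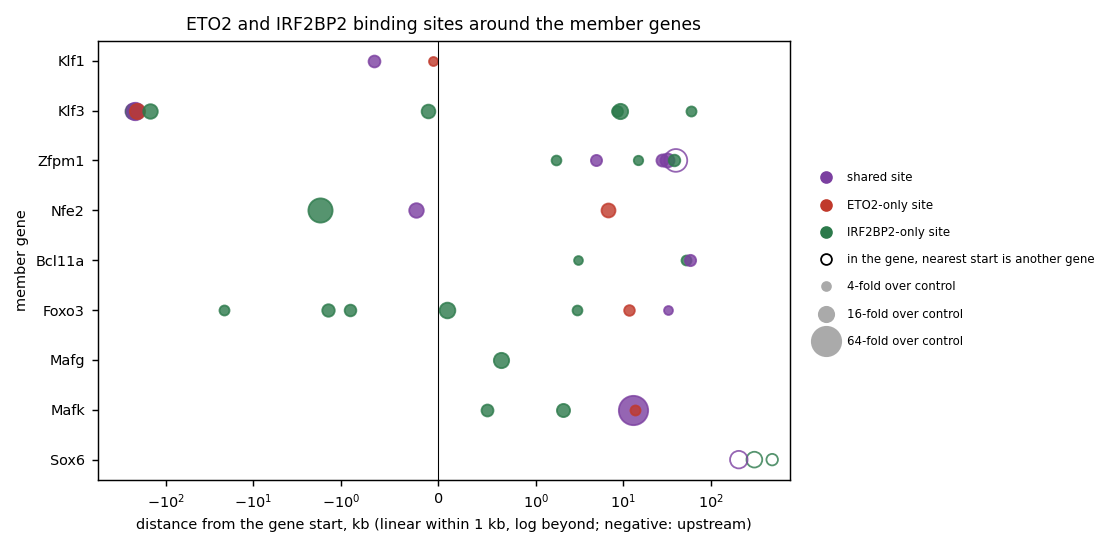
Binding sites around each member (y axis, 1 row a gene) by distance of the site's centre from the gene's start in kb (x axis, linear near the start and log scale further out, upstream negative). Colours give the class, larger circles mark higher fold enrichment over IgG, and open circles are sites inside a member but nearer to the start of another gene. The 5 distal Klf3 sites stand together upstream, and the shared Mafk site at 64-fold has the largest circle.

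RNA levels can be compared between genes only per length, in RPKM. In the 9 control libraries Zfpm1 had the highest median level (148 RPKM, range 69.1 to 173), followed by Klf1 (103, 45.6 to 128), Nfe2 (51.8, 44.7 to 70.2) and Bcl11a (47.8, 44.0 to 51.2). Foxo3 (15.4, 12.0 to 29.8), Mafg (15.0, 8.74 to 18), Mafk (13.8, 10.5 to 19.7) and Klf3 (9.91, 7.31 to 12.0) formed a lower tier, and Sox6 was lowest at 1.99 RPKM (1.39 to 2.93). Within single control groups the neighbours Nfe2 and Bcl11a overlapped in 3 of the 5 comparisons' controls and, in the non-induced cells of the differentiation series, Zfpm1, Nfe2, Klf1 and Bcl11a each overlapped the next, so their order is not resolved there. After differentiation Foxo3 (45.0 RPKM ± 10.6, SD, n = 2) and Klf3 (29.0 ± 1.32) stood above Bcl11a (20.2 ± 10.3), which reverses their order in the non-induced cells without overlap between Klf3 and Bcl11a or Foxo3 and Bcl11a in the induced ones. The deposited RPKM per CPM of a gene varied over the 21 libraries by 1.06- to 1.25-fold, the widest being Bcl11a, and changes below were therefore tested on counts.

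**Figure D2:**
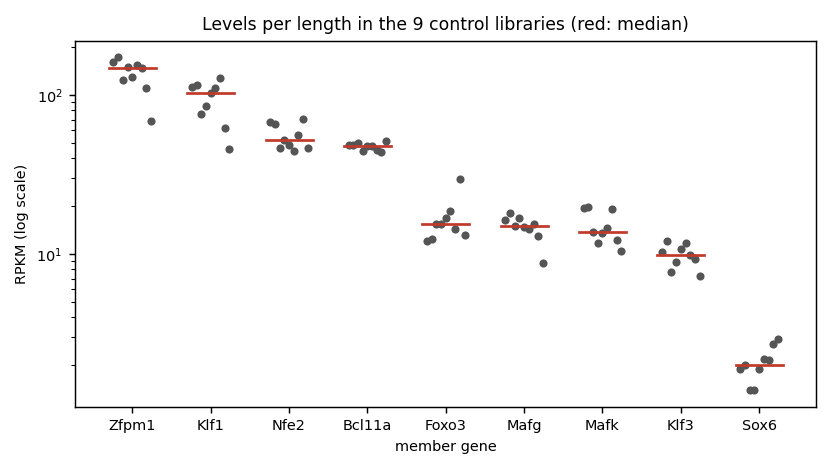
RPKM of the 9 members (x axis, ordered by median) on a log scale (y axis) in the 9 control libraries, 1 point a library, with red lines at the medians. Zfpm1 and Klf1 have the highest medians, and all points of Sox6 lie below those of the other genes.

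The total counts were 44519414 to 57684583 in the ETO2, IRF2BP2 and LSD1 libraries and 9929311 to 19623105 in the GFI1B and differentiation libraries. Replicates also differed more in 3 of the 4 shallower groups: the median chi-square of a gene's counts between the 2 libraries of a group was 17.8, 9.61 and 8.19 in the Gfi1b KD, non-induced and induced groups and 1.86 to 3.49 in the other groups, including the Gfi1b controls. The targeted RNA checks the labels: Cbfa2t3 fell by 1.21 on the log2 scale, further with sh3 (123 and 145 CPM) than with sh2 (202 and 244) from 400.3 and 427 in the controls, Kdm1a fell by 3.19, and Irf2bp2 fell by only 0.33. Gfi1b stood at 122 and 145 CPM in its controls, 76.5 in KD replicate 2 and 216 in the library labelled Gfi1b KD replicate 1, which goes against its label, so the GFI1B fold change of each member is given with and without that library. Of 7 erythroid markers 6 exceeded 3 counts in every library, the exception being the adult beta-globin gene Hbb-b1, while summed RPKM of myeloid, lymphoid and fibroblast or endothelial markers reached at most 0.338, 1.09 and 0.310. The Hbb-b1 counts cannot be read as its level: a mean of 0.0098 CPM in the ETO2 controls went with up to 19.7 RPKM. The paper reports beta-globin activation with ETO2 and with IRF2BP2 depletion. Such RPKM, up to 37.4 in an IRF2BP2 KD library, are part of the summed erythroid markers. Summed megakaryocyte markers, mostly Pf4, were between 137 and 1093 RPKM in all libraries. They were at 484–576 RPKM in controls and 994–1036 in KD libraries of the IRF2BP2 comparison, at 412–592 before and 845–1093 after differentiation, and at 498–528 and 606–718 in the ETO2 comparison. Summed erythroid markers moved with the members too, from 540–547 to 769–918 RPKM with ETO2 depletion, from 466–493 to 1229–1310 with IRF2BP2 depletion, from 528 to 390–391 with LSD1 depletion and from 549–629 to 1770–1899 upon differentiation. The part of either marker list in the results was not tested.

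The ETO2 comparison asks which genes this corepressor holds down in progenitors. A gene was called when edgeR's quasi-likelihood test gave an adjusted p of 0.05 or less and the log2 fold change was 0.5 or more in size. Of the 9 members 2, Klf1 and Foxo3, were called higher and none lower, where 5.74% of the 12537 genes tested were called (2.99% higher and 2.75% lower). All 4 KD libraries lay above both controls for 7 members (19.1% of all genes) and below both for 1 (18.7%), and the median log2 fold change was 0.33 over the members and 0.00 over all genes. In these bulk libraries fewer cells of a type and less RNA per cell cannot be told apart.

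The largest called rises were small. Klf1, the activator of globin and heme genes, stood at 172 and 175 CPM (counts scaled to the TMM-normalised library size) in the controls, and the KD libraries had 222, 245, 268 and 251 CPM (sh2 first, then sh3, an order kept below). All KD libraries exceeded the controls, and the sh3 libraries were the highest. The log2 fold change was 0.51 (SE 0.0761, 95% interval 0.33 to 0.68, adjusted p = 0.00366), close to the limit of 0.5, and the call ended in 6 of 14 settings, among them with sh2 alone (0.43) and when either control was left out (adjusted p = 0.0736 without replicate 1 and 0.0516 without replicate 2). Foxo3, the late antioxidant regulator, went from 34.5 and 35.4 to 49.5, 50.4, 49.3 and 54.0 CPM, with KD libraries close to each other and well above the controls. The change of 0.54 on the log2 scale (SE 0.0667, 95% interval 0.39 to 0.69, adjusted p = 0.00138) was called in all 14 settings. Leaving out control replicate 1 took the number of genes called from 720 to 279, and leaving out replicate 2 took it to 360.

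Among the other members, Zfpm1 (FOG1) went from 547 and 580.4 to 738, 861, 740.2 and 765 CPM, with no overlap and sh2 replicate 2 the highest. Its log2 fold change of 0.46 (SE 0.0765, adjusted p = 0.00584) missed the fold limit, as did that of Mafk, a small MAF partner, at 0.33 (SE 0.0672, adjusted p = 0.0149) with 54.5 and 55.4 CPM in controls and 64.5, 70.8, 72.7 and 68.0 CPM in KD libraries. With sh2 alone against the controls Zfpm1 was called (0.502, adjusted p = 8.73e-04) and with sh3 alone it was not (0.41). With the adjusted p alone 4 members were past the threshold, against 11.4% of all genes. Nfe2 had 104 and 101 CPM in controls and 116, 108, 118 and 118 CPM with KD, and Mafg 26.6 and 29.3 CPM and 30.2, 32.3, 31.0 and 34.1 CPM. Both groups stood slightly apart, with log2 fold changes of 0.16 (adjusted p = 0.123) and 0.19 (adjusted p = 0.17). Klf3, the repressor of the KLF pair, overlapped its controls, with 23.7 and 27.7 CPM against 19.4, 23.8, 21.9 and 24.8 CPM and a log2 fold change of -0.19 (95% interval -0.45 to 0.06, adjusted p = 0.324).

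The globin silencers had opposite signs without passing the test. Bcl11a had 183 and 184 CPM in the controls and lower values of 149, 150.4, 166 and 171 CPM with KD, the lowest with sh2, giving a log2 fold change of -0.21 (SE 0.0689, adjusted p = 0.0962). Sox6 had 15.9 and 16.6 CPM in the controls and 19.4, 20.1, 27.3 and 28.2 CPM with KD. All KD libraries were above the controls and the hairpins did not overlap, sh3 being the higher. The log2 fold change of 0.55 (SE 0.164, 95% interval 0.18 to 0.92, adjusted p = 0.0676) missed the threshold. Sox6 was called in 5 of 14 settings: with DESeq2 (adjusted p = 0.00748), with no filter on low counts (adjusted p = 0.0258), without either sh2 library and with sh3 alone.

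Compared directly, sh3 gave more Sox6 RNA than sh2 by 0.49 on the log2 scale (SE 0.073, 95% interval 0.33 to 0.65, adjusted p = 0.00159), under the fold limit of 0.5, so none of the 9 members was called (3.71% of all genes were). Against the controls Sox6 stood 0.28 higher with sh2 (adjusted p = 0.0328) and 0.77 higher with sh3 (adjusted p = 9.58e-06). The Sox6 difference between hairpins was called without sh2 replicate 2 (0.51) and without sh3 replicate 1 (0.52). For Bcl11a sh3 exceeded sh2 by 0.17 (95% interval 0.05 to 0.28, adjusted p = 0.0539) and for Klf1 by 0.15 (0.01 to 0.29, adjusted p = 0.145). The other 6 members differed by at most 0.11 in size.

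**Figure D3:**
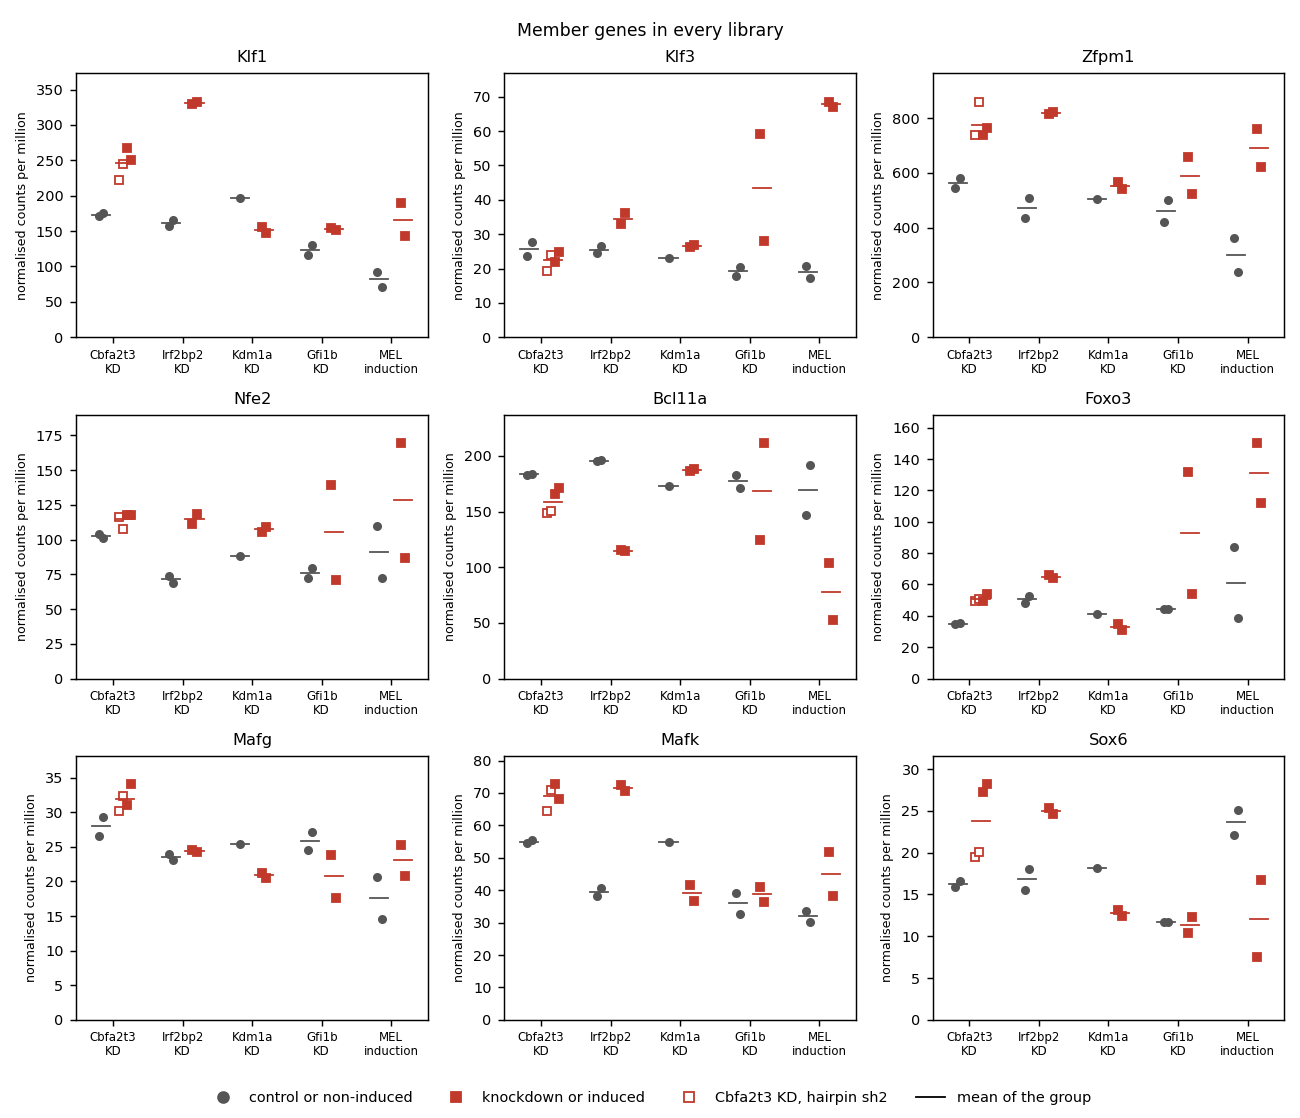
Normalised CPM (y axis, linear from 0) of each member, 1 panel a gene, in the 5 comparisons (x axis). Grey circles are control or non-induced libraries, red squares knockdown or induced libraries (open squares for ETO2 hairpin sh2) and lines the group means. In the IRF2BP2 comparison the groups stand apart for all members but Mafg, whose points almost coincide.

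The IRF2BP2 comparison asks the same of the partner corepressor. Called higher were 5 (Klf1, Mafk, Zfpm1, Nfe2 and Sox6) and called lower was 1 (Bcl11a), where 22.5% of the 12329 genes tested were called, 10.1% higher and 12.5% lower. With the adjusted p alone 8 members passed (47.1% of all genes). Both KD libraries lay above both controls for 8 members (36.7%) and below for 1 (37.4%), and the median log2 fold change was 0.57 over the members and -0.01 over all genes.

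Klf1 had the largest change, from 157 and 166 CPM in the controls to 329.7 and 333 CPM. Neither group overlapped the other, and the KD libraries agreed closely. The log2 fold change was 1.04 (SE 0.0843, 95% interval 0.86 to 1.21, adjusted p = 3.95e-08), a 2.05-fold rise. Klf3 went from 24.4 and 26.5 to 32.9 and 36.2 CPM, also without overlap. With a log2 fold change of 0.44 (SE 0.0947, adjusted p = 0.0011) it stayed under the fold limit, and it was called without control replicate 2 (0.50) or KD replicate 1 (0.51).

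Zfpm1 stood at 436 and 510.2 CPM in the controls and 815 and 824 CPM with KD. The controls differed more from each other than the KD libraries did, and the gap between the groups was several times wider. FOG1 RNA thus had a log2 fold change of 0.79 (SE 0.0959, 95% interval 0.59 to 1.00, adjusted p = 4.21e-06). Of the NF-E2 genes, Nfe2 and Mafk were called. Nfe2, the erythroid subunit whose sites are shown above, rose from 74.0 and 68.8 to 111 and 118 CPM, with a log2 fold change of 0.68 (SE 0.0835, 95% interval 0.51 to 0.86, adjusted p = 4.73e-06). Mafk rose from 38.1 and 40.5 to 72.3 and 70.6 CPM, or by 0.86 (SE 0.0831, 95% interval 0.69 to 1.04, adjusted p = 3.24e-07). Both were higher in each KD library than in any control, whereas Mafg, the second small MAF gene, had 24.0 and 23.1 CPM in controls and 24.5 and 24.2 CPM with KD. The KD values of Mafg lay just above the controls, by 0.05 on the log2 scale with a 95% interval of -0.15 to 0.25 (adjusted p = 0.691).

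The globin silencers moved in opposite directions here. Bcl11a fell from 195 and 196 CPM to 115 and 114 CPM, the only member with its KD libraries below the controls, with a log2 fold change of -0.77 (SE 0.0807, 95% interval -0.94 to -0.60, adjusted p = 8.28e-07). Sox6 rose from 15.6 and 18.0 CPM to 25.3 and 24.7 CPM, or by 0.57 (SE 0.102, 95% interval 0.36 to 0.79, adjusted p = 2.14e-04). Its call was lost without control replicate 1 (0.48). Foxo3 went from 48.4 and 52.8 to 65.8 and 64.2 CPM without overlap, and its log2 fold change of 0.36 (SE 0.0838, adjusted p = 0.00201) stayed under the fold limit. The other 5 calls (Klf1, Zfpm1, Nfe2, Bcl11a and Mafk) were kept in all 10 settings.

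LSD1 depletion was measured against a single control library, which is assumed to vary like the KD libraries, so the adjusted p-values in this comparison rest on the spread of the 2 KD libraries. Under the call rule 1 member, Sox6, was lower and none higher, where 22.5% of the 12628 genes tested were called (10.1% lower). Sox6 had 18.2 CPM in the control and 13.1 and 12.5 CPM with KD, a log2 fold change of -0.50 (SE 0.101, 95% interval -0.71 to -0.29, adjusted p = 2.68e-04). That value sits at the fold limit: the call ended with a filter of 10 counts in every library (-0.496), and under a rule that both KD libraries differ from the control by 0.5 or more on the log2 scale no member passed (22.9% of all genes did), Sox6 standing at -0.47 and -0.54.

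With the adjusted p alone 6 members passed (48.5% of all genes), 5 lower and 1 higher. Klf1 was lower in both KD libraries, at 156 and 148 CPM against 197 CPM, with a log2 fold change of -0.38 (SE 0.0749, adjusted p = 2.50e-04). Mafk went from 54.9 CPM to 41.6 and 36.8 CPM, KD replicate 2 being the lower, for a log2 fold change of -0.48 (SE 0.0854, adjusted p = 6.50e-05). Both differences are under 1.5-fold. Foxo3 had 41.4 CPM in the control and 34.6 and 30.7 CPM with KD (-0.34, adjusted p = 0.00265). Mafg had 25.5 CPM in the control and 21.3 and 20.5 CPM with KD (-0.29, adjusted p = 0.0127). Nfe2 was the member that was higher, with 88.5 CPM in the control and 106 and 109 CPM with KD (0.28, adjusted p = 0.0045), so the erythroid subunit of NF-E2 and its small MAF partners had opposite signs. Klf3 (23.1 CPM, then 26.2 and 26.8), Zfpm1 (505, then 566 and 541) and Bcl11a (173, then 186 and 188) had log2 fold changes of 0.20, 0.13 and 0.11 with adjusted p-values of 0.0761, 0.181 and 0.23.

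In the GFI1B comparison no member and no gene was called (0 of 11190 genes, 0%) by edgeR. At an unadjusted p under 0.05 there were 784 genes (7.01%), among them Klf3 and Foxo3, while DESeq2 called 49 genes and edgeR without a filter on low counts called 411, Klf3 and Foxo3 included. The KD libraries differed from each other: without the library labelled Gfi1b KD replicate 1 there were 396 genes called and no member, and without KD replicate 2 there were 3148 genes and 4 members. Each of these fits keeps 1 KD library, which is assumed to vary like the controls, and the second compares the library of doubtful label alone with the controls. Summed erythroid markers stood at 1390 RPKM in the library labelled Gfi1b KD replicate 1, 457 in KD replicate 2 and 427 and 477 in the controls, and megakaryocyte markers at 564, 137, 238 and 289 RPKM; their part in the values below was not tested.

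Klf3 had 17.8 and 20.6 CPM in the controls, then 59.1 and 28.0 CPM in KD replicates 1 and 2, an order kept for the other members. Both KD values lay above the controls, the first far above. The log2 fold change of Klf3 was 1.19 (SE 0.379, adjusted p = 0.69 by edgeR), 0.55 (adjusted p = 0.286) without the library labelled Gfi1b KD replicate 1, and 1.61 without replicate 2. Foxo3 went from 44.6 and 44.1 CPM to 132 and 53.9 CPM, again by far the highest in that library. The Foxo3 log2 fold change was 1.07 (SE 0.402, adjusted p = 0.69 by edgeR), 0.28 (adjusted p = 0.561) without it, and 1.55 without replicate 2.

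Klf1 was similar in both KD libraries, at 155 and 151 CPM, above controls of 116 and 130.4 CPM, with a log2 fold change of 0.31 (0.29 without the library in doubt). Zfpm1 had 422 and 502 CPM in controls and 657 and 525 CPM with KD (0.35, and 0.18 without that library). Nfe2 had 72.6 and 79.5 CPM in controls and 139 and 71.0 CPM with KD, so that its KD libraries lay on either side of the controls. The Nfe2 log2 fold change of 0.47 turned to -0.10 without the library in doubt and was 0.85 without KD replicate 2. Bcl11a had 183 and 171 CPM in controls and 125 and 212 CPM with KD, also on either side (-0.07, 0.26 without the library in doubt, and -0.52 without KD replicate 2). Mafg (24.5 and 27.2 CPM, then 23.8 and 17.7), Mafk (39.1 and 32.8, then 41.0 and 36.4) and Sox6 (11.7 and 11.7, then 10.3 and 12.3) had log2 fold changes of -0.31, 0.11 and -0.05, and -0.55, 0.01 and 0.07 without that library. Adjusted p-values of all members, with that library left out, were 0.286 or more.

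The differentiation comparison sets cells induced for 96 h against non-induced ones. Called higher were 4 (Klf3, Zfpm1, Foxo3 and Klf1) and called lower was 1 (Bcl11a), where 27.2% of the 11713 genes tested were called, 12.4% higher and 14.8% lower. The median log2 fold change was 0.49 over the members and -0.02 over all genes. The number of genes called fell from 3187 to 1626, 1522 or 1772 without non-induced replicate 1, non-induced replicate 2 or induced replicate 2.

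Klf3 rose the most of the members, from 20.8 and 17.2 CPM to 68.6 and 67.0 CPM. The induced libraries agreed and lay far above the non-induced ones. Its log2 fold change of 1.83 (SE 0.264, 95% interval 1.27 to 2.40, adjusted p = 3.57e-04) is a 3.56-fold rise and was called in all 10 settings. Klf1 went from 92.2 and 71.3 to 189.6 and 142 CPM, with no overlap but a spread within each state. The log2 fold change was 1.02 (SE 0.256, 95% interval 0.47 to 1.57, adjusted p = 0.0103), and the call was lost without non-induced replicate 2 (0.85, adjusted p = 0.098) or induced replicate 1 (0.79, adjusted p = 0.0571).

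Zfpm1 rose from 363 and 239 CPM to 761 and 624 CPM, each induced library being far above each non-induced one. This rise of 1.20 on the log2 scale (SE 0.264, 95% interval 0.64 to 1.77, adjusted p = 0.00496) was called in all 10 settings. Foxo3 rose from 83.6 and 38.9 to 150.3 and 112 CPM, with the non-induced libraries well apart but no overlap. Its log2 fold change of 1.09 (SE 0.322, 95% interval 0.40 to 1.78, adjusted p = 0.0226) was not called without non-induced replicate 2 (0.65, adjusted p = 0.186). None of the NF-E2 genes passed the test. Nfe2 had 109.6 and 72.7 CPM before and 169.6 and 86.7 CPM after induction, with overlap. Mafk had 33.7 and 30.1 CPM before and 51.7 and 38.4 CPM after, without overlap. Mafg had 20.6 and 14.5 CPM before and 25.3 and 20.8 CPM after, with the groups barely apart. Their log2 fold changes were 0.49, 0.49 and 0.39, with adjusted p-values of 0.263, 0.193 and 0.386, and that of Nfe2 was -0.08 without induced replicate 1 and 0.91 (adjusted p = 0.0428) without induced replicate 2.

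Bcl11a fell from 147 and 192 CPM to 104 and 52.3 CPM, induced replicate 2 being the lowest. The log2 fold change was -1.11 (SE 0.307, 95% interval -1.77 to -0.46, adjusted p = 0.0165), and the call was lost without non-induced replicate 2 (-0.90, adjusted p = 0.148) or induced replicate 2 (-0.69, adjusted p = 0.179). Sox6 had 22.1 and 25.1 CPM before and 7.47 and 16.7 CPM after induction, the groups not overlapping and the induced libraries well apart. Its log2 fold change of -0.96 (SE 0.378, 95% interval -1.77 to -0.15, adjusted p = 0.0722) missed the threshold, and it was called with the replicate number as a block (-1.07, adjusted p = 0.0188), with no filter on low counts (-0.97, adjusted p = 0.0253) and without induced replicate 2 (-1.65, adjusted p = 0.00405). Bcl11a and Sox6 were the members with fold changes below 0 in this comparison.

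**Figure D4:**
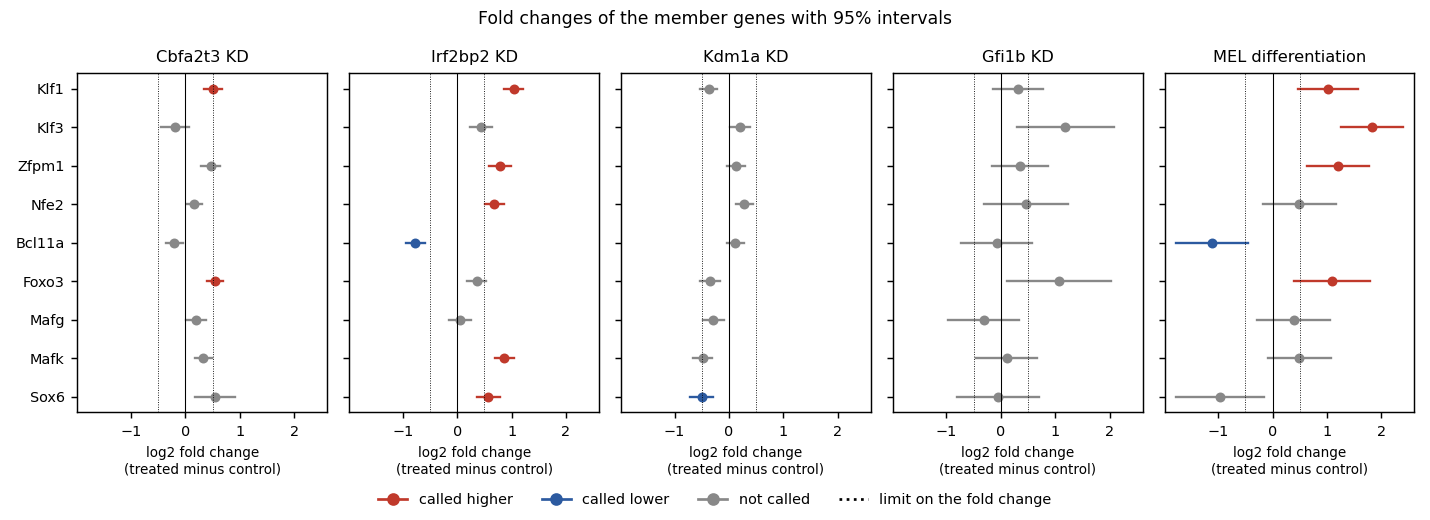
Log2 fold change of each member (x axis, treated minus control) in the 5 comparisons, 1 panel each, with 95% intervals as bars. Red points were called higher, blue points called lower and grey points not called, and dotted lines mark the fold limit of 0.5 in size. Klf3 upon differentiation lies furthest right, and Bcl11a is blue in the IRF2BP2 and differentiation comparisons.

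To compare the responses themselves, all 21 libraries were fitted together over 14176 genes and the log2 fold changes subtracted for each of the 10 pairs of comparisons. In this fit a gene has a single spread for all libraries, although replicates differed more in the Gfi1b KD, non-induced and induced groups. An SE can therefore be too wide between the deeper comparisons and too narrow against GFI1B depletion or differentiation. Of the 90 member values 21 were called, 7 of them between 2 knockdowns and the rest against differentiation. The comparisons share no library. The LSD1 response rests on 1 control library, which this fit assumes to vary like the other libraries, so a difference from it cannot be told apart from a deviation of that library. Its Klf1 level (197 CPM) was above the 172 and 175 CPM of the ETO2 controls and the 157 and 166 CPM of the IRF2BP2 controls, each normalised within its own table. With that limit, Klf1 was called between LSD1 depletion and ETO2 depletion, IRF2BP2 depletion and differentiation. Its response exceeded that to LSD1 depletion by 0.87 (SE 0.21, adjusted p = 0.0244) with ETO2 depletion, where 5.42% of all genes were called, and by 1.40 (SE 0.22, adjusted p = 9.09e-04) with IRF2BP2 depletion (9.28%). The LSD1 response of Klf1 minus that to differentiation was -1.38 (SE 0.23, adjusted p = 5.91e-04), in a pair where 26.3% of all genes were called. Mafk, at 54.9 CPM in the LSD1 control, 54.5 and 55.4 CPM in the ETO2 controls and 38.1 and 40.5 CPM in the IRF2BP2 controls, was called in the same pairs, by 0.80 (SE 0.22, adjusted p = 0.0393) for ETO2 minus LSD1, 1.34 (SE 0.23, adjusted p = 0.0014) for IRF2BP2 minus LSD1, and -0.97 (SE 0.23, adjusted p = 0.00646) for LSD1 minus differentiation. Both genes also responded more to IRF2BP2 than to GFI1B depletion (7.8% of all genes called), Klf1 by 0.73 (SE 0.21, adjusted p = 0.0389) and Mafk by 0.76 (SE 0.21, adjusted p = 0.0359). Those values were 0.76 for Klf1 and 0.87 for Mafk without the library labelled Gfi1b KD replicate 1, again called.

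For Klf3 the response to differentiation differed from that to 3 of the 4 knockdowns. ETO2 minus differentiation was -2.02 (SE 0.31, adjusted p = 5.47e-04) (26.1% of all genes called), IRF2BP2 minus differentiation -1.39 (SE 0.34, adjusted p = 0.009) (22.3%) and LSD1 minus differentiation -1.62 (SE 0.37, adjusted p = 0.0048), whereas GFI1B minus differentiation was not called (-0.63, adjusted p = 0.223). ETO2 minus GFI1B was -1.39 (SE 0.32, adjusted p = 0.0296) (2.46%), a call lost without the library labelled Gfi1b KD replicate 1. The SE of this difference is below that of the Klf3 response to GFI1B depletion fitted alone (0.379), the spread here being shared by all libraries. Zfpm1 also rose more upon differentiation than with ETO2 depletion (-0.74 (SE 0.23, adjusted p = 0.029)), LSD1 depletion (-1.06 (SE 0.28, adjusted p = 0.011)) or GFI1B depletion (-0.85 (SE 0.25, adjusted p = 0.0335), 14.4% of all genes called, and -1.02 without the library in doubt, again called).

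For Sox6 the ETO2 response minus that to differentiation was 1.52 (SE 0.35, adjusted p = 0.00538) and the IRF2BP2 response minus that to differentiation 1.54 (SE 0.37, adjusted p = 0.00813), with fold changes above 0 in both knockdowns and below 0 in mature cells. The Bcl11a response to ETO2 depletion exceeded that to differentiation by 0.91 (SE 0.32, adjusted p = 0.0466), and the response to LSD1 depletion did so by 1.23 (SE 0.39, adjusted p = 0.0279), whereas IRF2BP2 minus differentiation was not called. Foxo3 differed once, LSD1 minus differentiation at -1.42 (SE 0.50, adjusted p = 0.0441), and GFI1B minus differentiation was called for Klf1 at -0.71 (SE 0.21, adjusted p = 0.0312) and, without the library labelled Gfi1b KD replicate 1, at -0.73. Nfe2 had no called difference in any of the 10 pairs, and neither had Mafg. Without the library labelled Gfi1b KD replicate 1, 8 of the 36 values that involve GFI1B were called where 5 had been, but the share of all genes called also moved, to 3.9%, 11.7% and 2.9% for ETO2, IRF2BP2 and LSD1 minus GFI1B and to 33.5% for GFI1B minus differentiation. Called without that library but not with it were GFI1B minus differentiation at -0.93 for Mafg, -1.28 for Klf3 and 1.36 for Bcl11a, and IRF2BP2 minus GFI1B at -1.01 for Bcl11a. No member was called between the ETO2 and IRF2BP2 responses (1.18% of all genes), where Klf1 stood at -0.53 (SE 0.19, adjusted p = 0.223), or between the LSD1 and GFI1B responses (2.88%). For Bcl11a, ETO2 minus IRF2BP2 was 0.57 (SE 0.32), while the separate fits gave -0.21 (SE 0.0689) and -0.77 (SE 0.0807). With the spread shared by all libraries, an absent call does not show that the ETO2 and IRF2BP2 responses are alike.

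**Figure D5:**
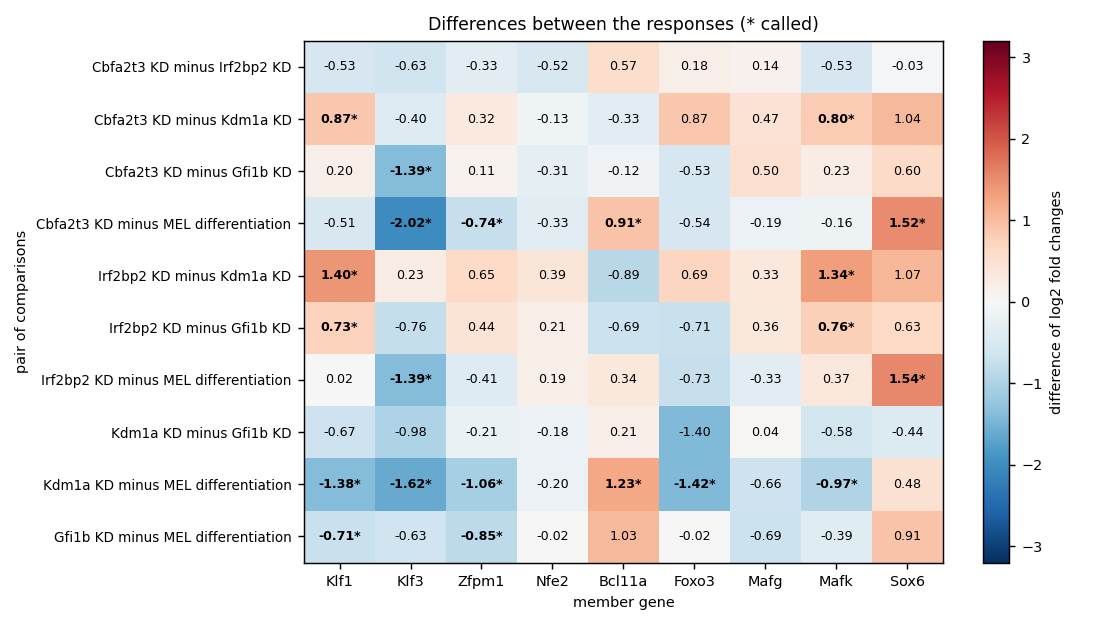
Difference of log2 fold changes (colour and printed value, first comparison minus second) for each member (x axis) in each of the 10 pairs of comparisons (y axis), with asterisks on the 21 called values. Klf1 and Mafk are called between LSD1 depletion and the ETO2 or IRF2BP2 depletions, and 3 of the 4 called Klf3 values are against differentiation.

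The profiles over the 5 comparisons were matched to those of 11053 genes by the Euclidean distance of the log2 fold changes, with both Gfi1b KD libraries included. The matches depended on the library labelled Gfi1b KD replicate 1: without it 1 of the 9 members, Mafk, kept its nearest gene, Ube2v1 (distance 0.165 with all libraries and 0.137 without that one, over 11002 genes). Mafg had Ikzf5 as its nearest gene at 0.074 and as the next to nearest at 0.241 without the library, and Klf3 had Zbtb4 at 0.348 and likewise at 0.402. For Nfe2, by contrast, the nearest gene Ctsd (0.108) went to rank 106, and for Foxo3 the nearest gene Cmas (0.123) went to rank 30. The other nearest genes were Ccrn4l for Klf1 (0.268, and Epor at 0.261 without the library), C2cd2l for Zfpm1 (0.281, and Nprl3 at 0.248), Zadh2 for Bcl11a (0.232, and Mks1 at 0.194) and Jmjd6 for Sox6 (0.362, and Myl9 at 0.173).

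Genes known to be driven by the members were then counted. Of 13 listed KLF1 targets, 5 of 10 tested were higher and 1 lower with ETO2 depletion (median log2 fold change 0.31), and 6 of 9 higher and 1 lower with IRF2BP2 depletion (median 1.41). With LSD1 depletion 0 of 9 were higher and 4 lower (median -0.22), and upon differentiation 4 of 10 were higher and 1 lower (median 1.07). In the GFI1B comparison, here and for the lists below with both KD libraries included, none of 8 was called. Over all genes tested the shares called higher and lower were 2.99% and 2.75% with ETO2 depletion, 10.1% and 12.5% with IRF2BP2 depletion, 12.4% and 10.1% with LSD1 depletion and 12.4% and 14.8% upon differentiation. The anion exchanger Slc4a1 rose by 3.93 with ETO2 depletion, 5.13 with IRF2BP2 depletion and 7.23 upon differentiation and fell by 3.01 with LSD1 depletion. The membrane protein gene Epb4.2 changed by 2.34, 2.88, 4.51 and -3.38 in the same order, and Alas2, the first enzyme of erythroid heme synthesis, rose by 2.10, 3.28 and 5.48 with ETO2 depletion, IRF2BP2 depletion and differentiation and was not called with LSD1 depletion (0.07, adjusted p = 0.465). The adhesion receptor Cd44 was the target that fell, by 0.58, 0.82 and 1.88 with ETO2 depletion, IRF2BP2 depletion and differentiation.

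Of the embryonic globin genes, Hbb-y and Hbb-bh1 are the beta-like genes that BCL11A and SOX6 are known to silence, and Hba-x is alpha-like. Hba-x had the highest level and went from a mean of 32.8 to 104 CPM with ETO2 depletion, from 32.3 to 559 CPM with IRF2BP2 depletion, from 86.1 to 25.7 CPM with LSD1 depletion and from 2.81 to 519 CPM upon differentiation. All 4 changes of Hba-x were called, with log2 fold changes of 1.66, 4.11, -1.74 and 7.56. The LSD1 value rests on 1 control library. Its 86.1 CPM stood above the control means of 32.8 CPM (ETO2) and 32.3 CPM (IRF2BP2), each normalised within its own table. A deviation of that library cannot be told apart from a fall with LSD1 depletion. Of the 3 listed genes, 2 of 2 tested were higher with ETO2 and with IRF2BP2 depletion, 1 of 1 lower with LSD1 depletion, 0 of 1 called with GFI1B depletion and 1 of 1 higher upon differentiation, counts too small to set against the shares of all genes (2.99% and 10.1% higher with ETO2 and IRF2BP2 depletion, 10.1% lower with LSD1 depletion and 12.4% higher upon differentiation). The second gene tested was Hbb-y in the ETO2 comparison (0.037 to 0.291 CPM) and Hbb-bh1 in the IRF2BP2 comparison (0.050 to 0.354 CPM), both with control means below the 3-count floor of 0.0519 to 0.0676 CPM in those libraries.

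NF-E2 targets were called higher in 3 of 5 with ETO2 depletion, in 3 of 5 (1 lower) with IRF2BP2 depletion and in 2 of 5 (2 lower) upon differentiation (2.99% of all genes were higher in the first, 10.1% higher and 12.5% lower in the second, and 12.4% higher and 14.8% lower in the third), with none of 5 called with LSD1 and none of 3 with GFI1B depletion. Their median log2 fold changes were 0.93, 1.33, 0.48 and -0.65 with ETO2, IRF2BP2 and LSD1 depletion and upon differentiation. The heme enzyme gene Fech (1.01, 1.33 and 2.13) rose with ETO2 depletion, with IRF2BP2 depletion and upon differentiation. The genes active in megakaryocytes went both ways: Rab27b (-1.50 with IRF2BP2 depletion and -1.55 upon differentiation; in ETO2 depletion it was not called) and Tubb1 (-2.86 upon differentiation) fell, whereas the thromboxane synthase gene Tbxas1 rose by 1.32 with ETO2 and 1.65 with IRF2BP2 depletion, from under 0.3 CPM. Tubb1 was not called in the knockdowns where it was tested (0.65, 0.38 and 0.59 with ETO2, IRF2BP2 and LSD1 depletion). FOXO3 targets, 15 tested in each comparison, went both ways: 2 higher and 2 lower with ETO2 depletion (median 0.15), 2 and 5 with IRF2BP2 depletion (-0.19), 4 and 2 with LSD1 depletion (0.09), 0 and 0 with GFI1B depletion, and 5 and 2 upon differentiation (0.66). Counts of 2 of 15 lie near the shares of all genes called higher with IRF2BP2 depletion (10.1%), lower with LSD1 depletion (10.1%) and lower upon differentiation (14.8%). The pro-apoptotic gene Bcl2l11 was higher in 4 comparisons (0.75, 1.25, 0.67 and 2.96 for ETO2, IRF2BP2, LSD1 and differentiation), Txnip fell by 0.59 with ETO2 depletion and rose by 1.92 upon differentiation, and Bnip3 was lower with IRF2BP2 depletion (-1.23), with LSD1 depletion (-1.24) and upon differentiation (-1.14).

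Relatives and partners of the members were counted in the same way, where 2.99% of all genes were called higher with ETO2 depletion, 10.1% higher and 12.5% lower with IRF2BP2 depletion, 12.4% higher and 10.1% lower with LSD1 depletion, and 12.4% higher and 14.8% lower upon differentiation. With lists of 5 to 7 genes, a single call in a direction lies near these shares in the last 3 comparisons. Of 7 other KLF genes tested, none was called with ETO2 or GFI1B depletion, 1 was higher (Klf13, 0.79) and 1 lower (Klf5, -1.0) with IRF2BP2 depletion, 2 were higher with LSD1 depletion (Klf6, 1.65, and Klf11, 0.65), and 3 were higher (Klf10, Klf11 and Klf13) and 1 lower (Klf6, -1.21) upon differentiation. Of 5 other CNC and MAF genes, which pair with or compete with NF-E2, 3 were lower with IRF2BP2 depletion (Nfe2l2, -1.50, Bach2, -1.34, and Maff, -0.57), Maff was lower with LSD1 depletion (-1.01) and upon differentiation (-2.32), and Bach1 was higher upon differentiation (1.13), with none called with ETO2 or GFI1B depletion. Corepressor partners of FOG1, KLF3 and BCL11A (15 tested) had no call in the higher direction and few in the lower: 1 with ETO2 and with IRF2BP2 depletion (Chd3, -0.93 and -1.19), 4 with LSD1 depletion (Hdac2, -1.35, among them), none with GFI1B depletion and 3 upon differentiation (Chd3, -1.99, and Mbd3, -1.21, among them), where 2.75%, 12.5%, 10.1%, 0% and 14.8% of all genes were called lower in the ETO2, IRF2BP2, LSD1, GFI1B and differentiation comparisons. Of 6 other paralogues, Foxo4 was higher with LSD1 depletion (0.51) and upon differentiation (0.89), and Sox5 (-1.95) and Sox13 were lower upon differentiation, the latter with 0 counts in both induced libraries and at least 11.8-fold lower against a floor of 3 counts per library, with no call in the other 3 comparisons.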

How the data were processed

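RNA-Seq was carried out on 21 MEL libraries and ChIP-Seq with 1 library each for ETO2 and IRF2BP2. Per the labels and the study's methods, the authors aligned polyA RNA reads to mm9 with TopHat2, counted them per RefSeq gene with rpkmforgenes (strand not given in the sources used here) and deposited raw counts beside RPKM (counts scaled by gene length and library size) for each gene in 5 tables, 1 for each comparison; the authors' fold changes and p-values were not used. The authors also deposited a list of binding sites, aligned with Bowtie and kept where at least 2 peak callers found them, with a fold ratio over IgG and an adjusted p-value; the ETO2 data came from an earlier study, and 4 columns of reads per sample were not used.

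The members and gene lists were chosen with earlier results of these data known. Each table was filtered (filterByExpr), TMM-normalised and tested with edgeR 4.0.16 in R 4.3.3 (quasi-likelihood test, Benjamini-Hochberg adjustment over all genes tested), and a call needed an adjusted p up to 0.05 and a change of at least 0.5 in size on the log2 scale. CPM values use TMM library sizes. All 9 members are described, and of each gene list the called genes with the largest changes. A joint fit gave differences between responses. The code was tested on simulated data. Alternatives were DESeq2 1.42.0 and its size factors, no filter, a minimum of 10 counts, no fold limit, single hairpins, each replicate left out (a lone library in a group is then assumed to vary like the others), the replicate block, and sites within 100 kb. The joint fit and profile matches without the library labelled Gfi1b KD replicate 1 were added after seeing the data. The study describes independent biological replicates; p-values measure only the spread between these libraries. Sites were assigned to the nearest start within 1 Mb, and the class codes were read from class sizes.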

Additional observations from a re-analysis of the deposited data

Results flagged for a closer look

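In the 4 Cbfa2t3 KD libraries 1 of the 9 members, Nfe2, had a library far from the others: the gap between sh2 replicate 2 (108 CPM) and the nearest of the other 3 (116, 118 and 118 CPM) was 0.857 of the range. Chance sets about 1 in 20 such groups apart. The Sox6 response differed between the hairpins against Cbfa2t3, sh3 minus sh2 being 0.489 on the log2 scale (adjusted p = 0.00159), and Cbfa2t3 RNA was also lower with sh3 (123 and 145 CPM) than with sh2 (202 and 244 CPM).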

How the results depend on the processing

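Most member values kept their direction and side of the threshold under the alternatives: 112 of 126 recomputed values with ETO2 depletion, 85 of 90 with IRF2BP2 depletion, 54 of 63 with LSD1 depletion, 80 of 90 with GFI1B depletion, 80 of 90 upon differentiation and 56 of 63 between hairpins. LSD1 values with a KD library left out were not tested and counted as kept when of the same sign and within 1 SE of the main value. Without a limit on the fold change 1423 genes and 4 members were called with ETO2 depletion, 5810 genes with IRF2BP2 depletion, and 6121 genes and 6 members with LSD1 depletion, since that rule is looser by construction. With sh2 alone 882 genes and 2 members (Zfpm1 and Foxo3) were called, and with sh3 alone 1145 genes and 3 members (Klf1, Foxo3 and Sox6). With LSD1 depletion 0 members were called at 10 counts in every library and 0 under the rule on both libraries. With GFI1B depletion DESeq2 called 49 genes, and no filter on low counts gave 411 genes and 2 members; the cause was not tested. Without the library labelled Gfi1b KD replicate 1 the nearest profile gene stayed the same for 1 of 9 members. Limiting sites to the median enrichment or more left 23 of 36, by construction. Leaving out each replicate gave 279 to 797 genes and 1 to 3 members with ETO2 depletion, 2557 to 3022 and 5 to 7 with IRF2BP2 depletion, 0 to 3148 and 0 to 4 in the GFI1B comparison (the highest without KD replicate 2, where the library of doubtful label is the KD library that remains), 1522 to 3369 and 2 to 6 upon differentiation, and 0 to 1 members between hairpins. Signs turned between the lowest and highest values with a replicate left out, with GFI1B depletion for Mafk (-0.027 without control replicate 2 to 0.23), Nfe2 (-0.10 without KD replicate 1 to 0.85), Bcl11a (-0.52 to 0.26 without KD replicate 1) and Sox6 (-0.20 to 0.071 without KD replicate 1), upon differentiation for Nfe2 (-0.082 without induced replicate 1 to 0.91), and between hairpins for Klf3 (-0.028 to 0.27) and Mafk (-0.0086 to 0.13), both lowest without sh2 replicate 1, Zfpm1 (-0.19 to 0.029 without sh2 replicate 2), and Foxo3 (-0.021 to 0.11) and Mafg (-0.012 to 0.13), both lowest without sh3 replicate 2; no value of turned sign was called. The replicate numbers share no stated batch (correlations of deviations 0.12 to 0.25 with ETO2 depletion, 0.025, 0.0015 and 0.196 with IRF2BP2 depletion, GFI1B depletion and differentiation). With the replicate block 632 genes and 2 members were called with ETO2 depletion, 2834 and 6 with IRF2BP2 depletion, 0 and 0 with GFI1B depletion, 3916 and 6 upon differentiation, where Sox6 was called (-1.07), and 0 members between hairpins. No paired analysis was possible for LSD1 depletion because it has a single control. Depth limits the embryonic globin genes Hbb-y in the ETO2 comparison and Hbb-bh1 in the IRF2BP2 comparison, whose control means there lie below the floor of 3 counts.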
